A study of Homo sapiens with 6 samples.

Results

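Genes of transforming growth factor beta (TGF-beta) and bone morphogenetic protein (BMP) signalling were examined in SW480 cells, an established human colon carcinoma line, after knockdown of gankyrin. The list held 37 genes chosen by name, with earlier results of these data known. Of these, 18 belong to the TGF-beta and activin branch, 11 to the BMP branch and 8 act in both. Gankyrin is encoded by PSMD10 and acts as a chaperone in proteasome assembly. Cells had been infected with an shRNA against gankyrin (n = 3 arrays) or with a non-targeting control shRNA (n = 3 arrays), each for 4 days and with no other treatment stated, and their total RNA was hybridised to Affymetrix oligonucleotide arrays. The labels name 1 cell line and give neither the hairpin sequences nor the number of hairpins. They also do not say whether replicates came from separate cultures, so the p-values reflect the variation among these 6 arrays, part or all of which may be technical.

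TGF-beta and BMP ligands are secreted dimers that bring together type I and type II receptor kinases at the cell surface. TGF-beta and activin receptors phosphorylate SMAD2 and SMAD3, BMP receptors phosphorylate SMAD1 and SMAD5, and both sets pair with SMAD4 to enter the nucleus and regulate target genes. In colon epithelium TGF-beta is known as a growth-restraining signal whose receptors and SMADs are often mutated in cancer, and SW480 is widely described as a line deficient in SMAD4.

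The values are log2 probe set signals, so a difference of 1 is a 2-fold difference. Each gene was read on its brightest probe set that names a single gene, and 34 of the 37 genes lay above the limit set for dim probe sets and were tested. "Rose" and "fell" are used for an adjusted p under 0.05 in limma, adjusted over all 14199 genes tested. Of the 34 genes, 2 rose and 13 fell. Over all 14199 genes tested 8.13% rose and 14.3% fell, and 22.5% passed in either direction, against 44.1% of the 34. As the genes and branches were chosen with earlier results of these data known, such shares only describe them. For log2 fold changes the 34 genes had a median of -0.20, against -0.02 for all genes. The median of the 34 was -0.11 without control replicate 3, an array that stands apart, and -0.08 with each gene's probe sets averaged. As the array reads bulk RNA, fewer cells expressing a gene and less RNA per cell cannot be told apart.

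On the TGF-beta side 10 of 17 tested genes fell and 0 rose in limma (0 rose at an unadjusted p under 0.05 as well), with a median log2 fold change of -0.40. The BMP side had 2 falls and 1 rise among 9 tested genes and a median of 0.08. The genes shared by both had 1 fall and 1 rise among 8, with a median of -0.20, or -0.10 without control replicate 3. In either direction 58.8% of the TGF-beta, 33.3% of the BMP and 25.0% of the shared genes passed, against 22.5% of all genes. The share of the shared genes was thus near that of all genes. The difference between the branches was not tested. All gankyrin shRNA arrays were below all control arrays for 15 of the 34 genes and above them for 4. Over all genes these shares were 24.6% and 15.7%, or 40.3% in either direction.

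**Figure D1:**
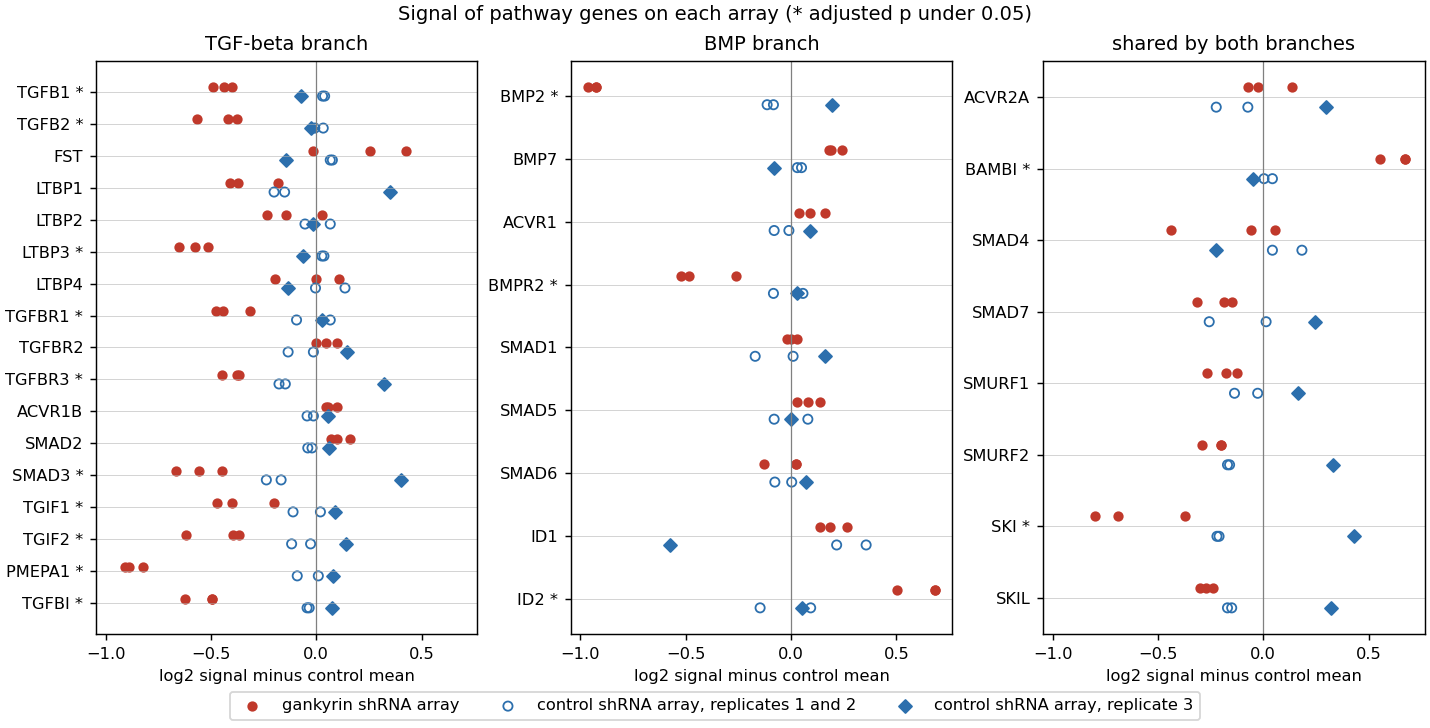
Log2 signal of each tested gene on each array minus the mean of the 3 control shRNA arrays, on a common axis in log2 units, with genes in rows and the branches in panels. Gankyrin shRNA arrays are filled circles, control replicates 1 and 2 open circles and control replicate 3 a diamond. PMEPA1 and BMP2 lie farthest to the left and BAMBI and ID2 farthest to the right, while control replicate 3 stands away from the other controls for SMAD3, SKI, TGFBR3, SKIL, SMURF2 and ID1.

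PSMD10 checked the labels. Its log2 signal was 6.58, 6.47 and 6.30 on the gankyrin shRNA arrays and 10.19, 10.23 and 10.15 on the control arrays, with no overlap (log2 fold change -3.74 ± 0.08 SE, limma adjusted p = 6.81e-09). The design text mentions NFIL3 shRNA in 1 sentence, whereas every sample label has gankyrin or control. Epithelial markers were high on all arrays, with EPCAM at 12.2 in both groups and KRT18 at 12.99 and 13.05 in gankyrin and control shRNA cells. The intestinal transcription factor CDX2 was dim, at 4.12 in gankyrin shRNA cells and 4.19 in control cells, as were CDH17 and GPA33. Of the epithelial markers VIL1 rose, and KRT19, KRT20 and CDH1 fell. None of the markers of fibroblasts, leukocytes or endothelium past the limit for dim probe sets (4, 4 and 2 genes) changed in limma with all 6 arrays, the lowest adjusted p being 0.0759 for ITGAM. ITGAM, a leukocyte marker, rose when control replicate 3 was left out. Means of each of these 3 lists per array spanned 4.00 to 4.04, 5.97 to 6.13 and 3.52 to 3.71 in gankyrin shRNA cells, against 3.92 to 3.95, 5.91 to 6.03 and 3.51 to 3.57 in control cells. Their part in the results was not tested. PTPRC of the leukocyte list, COL3A1 and LUM of the fibroblast list and CDH5 and KDR of the endothelial list had means between 2.05 and 2.76 in both groups, below the median of 2.98 for 135 olfactory receptor probe sets. Others of these lists were brighter, among them COL1A1 at 7.22 in gankyrin shRNA cells and 7.01 in control cells, ITGAM at 5.89 in gankyrin shRNA cells and 5.55 in control cells, CD3E at 5.03 in gankyrin shRNA cells and 4.90 in control cells, and PECAM1 at 5.05 in gankyrin shRNA cells and 5.11 in control cells. LYZ, listed for leukocytes but also made by intestinal epithelium, was at 12.27 in gankyrin shRNA cells and 12.31 in control cells.

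Control replicate 3 stood apart from the other arrays. Its signal lay over 0.3 from the mean of the other control arrays for 19.8% of all genes, against 3.56% to 8.06% for the other 5 arrays measured the same way. On the array's own control probe sets, the 5′ signal of the actin gene ACTB minus its 3′ signal was -0.43, -0.50 and -0.53 on gankyrin shRNA arrays, against -0.51 and -0.52 on control replicates 1 and 2 and -1.82 on control replicate 3. For GAPDH that difference was 0.07 to 0.11 on gankyrin shRNA arrays and 0.02, 0.00 and -0.56 on control replicates 1 to 3. Of 91 probe sets of the pathway genes past the limit for dim signals, 15 were over 0.3 higher and 17 over 0.3 lower on this array than on the other controls. Without this array 12.7% of all genes rose and 16.6% fell. All 15 genes that passed kept their direction and passed without it, and 0 others passed.

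**Figure D2:**
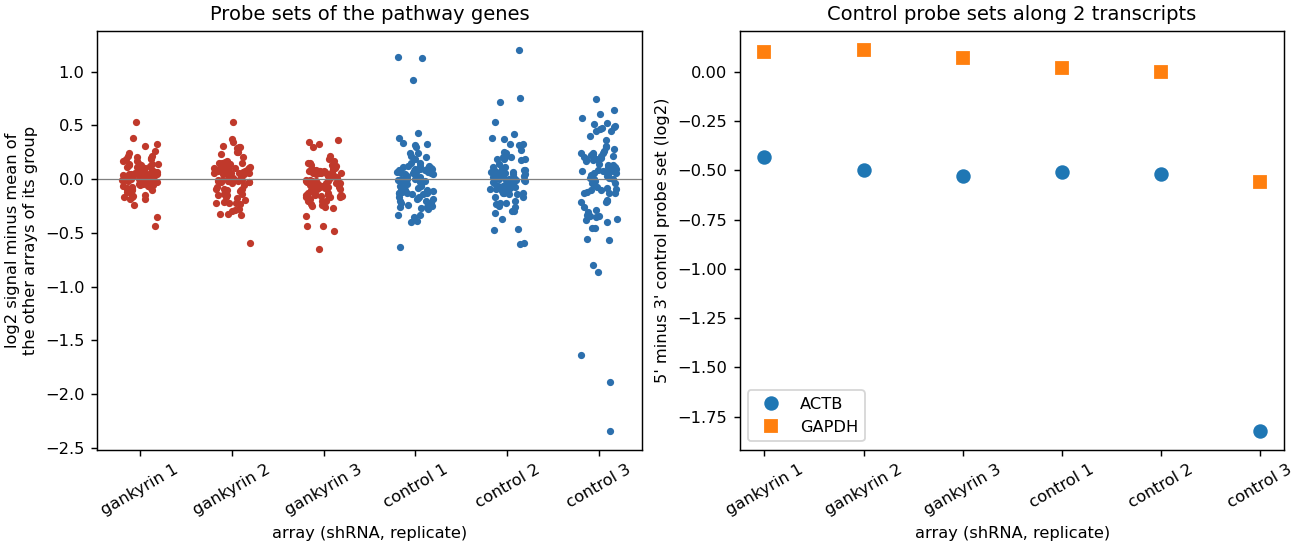
Left, log2 signal of 91 probe sets of the pathway genes on each array minus the mean of the other arrays of its group. Right, 5′ minus 3′ control probe set signal (log2) for ACTB and GAPDH on the 6 arrays, gankyrin shRNA first. Control replicate 3 has the widest spread of member probe sets, from -2.34 to 0.75, and the lowest 5′ minus 3′ signal for both control transcripts.

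The stretches of genome upstream of 4 genes are shown because these genes passed under every alternative run and have a single transcription start in the RefSeq table (GRCh38.p14). They are TGFB2 and TGFBI, which fell, and ID2 and BAMBI, which rose. Each runs over the 250 bases before the start, 5′ to 3′ on the gene's strand, and capitals mark CAGAC or its reverse complement GTCTG, the core of a SMAD-binding element, and GGCGCC, a GC-rich SMAD motif known from BMP-responsive genes.
TGFB2 (chr1:218345086-218345335, plus strand): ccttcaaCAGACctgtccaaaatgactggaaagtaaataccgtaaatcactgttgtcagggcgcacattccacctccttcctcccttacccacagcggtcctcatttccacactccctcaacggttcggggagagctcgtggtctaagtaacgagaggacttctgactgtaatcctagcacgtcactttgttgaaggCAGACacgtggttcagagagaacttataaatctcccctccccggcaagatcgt
TGFBI (chr5:136028738-136028987, plus strand): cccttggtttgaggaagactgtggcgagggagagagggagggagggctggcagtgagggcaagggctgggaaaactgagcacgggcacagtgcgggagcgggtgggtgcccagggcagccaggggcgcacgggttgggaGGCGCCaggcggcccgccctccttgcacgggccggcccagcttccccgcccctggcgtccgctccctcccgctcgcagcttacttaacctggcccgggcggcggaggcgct
ID2 (chr2:8681806-8682055, plus strand): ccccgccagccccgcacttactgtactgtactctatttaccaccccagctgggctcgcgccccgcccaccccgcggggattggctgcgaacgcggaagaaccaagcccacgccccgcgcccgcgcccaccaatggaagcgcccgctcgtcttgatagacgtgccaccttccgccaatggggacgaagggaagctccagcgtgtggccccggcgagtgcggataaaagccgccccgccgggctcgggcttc
BAMBI (chr10:28677271-28677520, plus strand): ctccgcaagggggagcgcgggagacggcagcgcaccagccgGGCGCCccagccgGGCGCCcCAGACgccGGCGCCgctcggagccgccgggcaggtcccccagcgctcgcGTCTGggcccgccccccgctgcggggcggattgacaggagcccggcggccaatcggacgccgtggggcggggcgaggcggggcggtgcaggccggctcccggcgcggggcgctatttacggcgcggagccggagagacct
The TGFB2 stretch held 2 CAGAC motifs, the TGFBI stretch 1 GGCGCC motif and the BAMBI stretch 2 CAGAC and 3 GGCGCC motifs, while these letters were not in the ID2 window. Searched on both strands, CAGAC was in 27 of 70 upstream windows of the listed genes (38.6%), against 38.0% of all 35116 windows in the table. GGCGCC was in 17 of the 70 windows (24.3%), against 16.4% of all windows. The windows cover 34 of the 37 genes, several with more than 1 start, and a match is a string of letters, not a shown binding site.

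Of the TGF-beta isoforms TGFB1 and TGFB2 fell, while TGFB3, a dim gene outside the list, did not pass (log2 fold change 0.05). TGFB1, the most widely expressed TGF-beta, had log2 signals of 8.38, 8.34 and 8.29 in gankyrin shRNA cells, against 8.82, 8.81 and 8.71 in control cells. TGFB1 thus was lower on every gankyrin shRNA array and fell 1.36-fold (log2 fold change -0.44 ± 0.06 SE, limma adjusted p = 0.00133). Its other, dim probe set, at 4.18 in gankyrin shRNA cells and 4.08 in control cells, was 0.11 higher and did not pass. TGFB2, a second isoform, read 4.78, 4.74 and 4.59 in gankyrin shRNA cells and 5.15, 5.19 and 5.13 in control cells. The groups did not overlap, and TGFB2 fell 1.37-fold (limma adjusted p = 0.00784), although its 4 other probe sets lay below the limit for dim signals. TGFB2 was rather dim itself, with means of 4.70 in gankyrin shRNA cells and 5.16 in control cells, and a stricter filter removed it. INHBA, the subunit of activin A, was too dim to test: its brightest probe set read 2.80, 3.19 and 3.50 in gankyrin shRNA cells, against 3.29, 3.08 and 3.25 in control cells.

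Of the extracellular proteins that hold or trap these ligands, LTBP3 fell and the others did not pass. Latent TGF-beta binding proteins anchor the inactive ligand complex in the matrix, except LTBP2, which does not bind it. LTBP3 gave 6.17, 6.09 and 6.23 in gankyrin shRNA cells and 6.78, 6.77 and 6.68 in control cells, with no overlap, a 1.49-fold fall (log2 fold change -0.58 ± 0.08 SE, limma adjusted p = 0.00127). The LTBP3 call rests on this probe set, since its 2 dimmer ones were at -0.28 and -0.04 and did not pass. LTBP1 read 5.88, 5.69 and 5.65 in gankyrin shRNA cells, against 5.91, 5.86 and 6.41 in control cells. The groups overlap, and the LTBP1 log2 fold change of -0.32 shrank to -0.15 without control replicate 3. A dimmer LTBP1 probe set was at 0.22 and did not pass, and with both averaged LTBP1 was at -0.05. LTBP2 and LTBP4 were at -0.12 and -0.03 with 95% intervals of -0.35 to 0.11 and -0.28 to 0.22. Follistatin (FST), which binds and neutralises activin, was at 0.22 with an interval of -0.06 to 0.51.

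The receptors did not move together. TGFBR1, the type I receptor kinase, read 8.01, 8.17 and 8.04 in gankyrin shRNA cells and 8.39, 8.55 and 8.51 in control cells. All 3 gankyrin shRNA arrays were below the controls, and TGFBR1 fell 1.33-fold (log2 fold change -0.41 ± 0.07 SE, limma adjusted p = 0.00403). A second TGFBR1 probe set read 5.88, 6.05 and 5.53 in gankyrin shRNA cells and 6.11, 5.86 and 4.10 in control cells, where control replicate 3 alone sets its difference of 0.46. The type II receptor TGFBR2 did not pass, at 9.08, 9.13 and 9.03 in gankyrin shRNA cells and 8.90, 9.02 and 9.18 in control cells. Its 95% interval ran from -0.12 to 0.22. The dimmer TGFBR2 probe set read 5.84, 5.91 and 5.67 in gankyrin shRNA cells, against 5.58, 5.62 and 3.26 in control cells, the low value again being control replicate 3.

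Betaglycan (TGFBR3), a co-receptor that presents TGF-beta to TGFBR2, was just inside the threshold. It read 6.90, 6.98 and 6.97 in gankyrin shRNA cells and 7.17, 7.2 and 7.67 in control cells, without overlap. TGFBR3 fell 1.32-fold (limma adjusted p = 0.0466), and the log2 fold change of -0.40 ± 0.13 SE became -0.24 without control replicate 3 (limma adjusted p = 0.0197). The activin type I receptor ACVR1B was at 0.07 on its brightest probe set and did not pass. Dimmer ACVR1B probe sets past the limit were at 0.30 and 0.49, and with the probe sets averaged ACVR1B was 0.29 higher and passed (limma adjusted p = 0.0373).

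Among the SMADs and corepressors of the TGF-beta branch, SMAD3, TGIF1 and TGIF2 fell. SMAD2, one of the receptor-activated SMADs, read 8.83, 8.92 and 8.86 in gankyrin shRNA cells, against 8.72, 8.74 and 8.82 in control cells. These groups barely part, and SMAD2 did not pass (log2 fold change 0.11, 95% interval -0.03 to 0.25). Dimmer SMAD2 probe sets were at 0.02, 0.20, 0.25, 0.31 and 0.45, and none passed. The groups did not overlap on these, except on the one at 0.02. With probe sets averaged SMAD2 was 0.22 higher and did not pass (limma adjusted p = 0.0612). SMAD3, the other receptor-activated SMAD, gave 8.08, 8.19 and 7.97 in gankyrin shRNA cells and 8.40, 8.47 and 9.04 in control cells. It fell by 0.56 ± 0.15 SE on the log2 scale (limma adjusted p = 0.0228), or by 0.36 without control replicate 3 (limma adjusted p = 0.00103). In a fit over all 32759 probe sets past the limit for dim signals, this probe set did not pass (limma adjusted p = 0.0759). Only on this 1 of 4 SMAD3 probe sets were the groups without overlap. The 3 other SMAD3 probe sets were at 0.32, 0.06 and -0.05, none passed, and their mean with the brightest was at -0.06. The first of them read 6.65, 6.72 and 6.20 in gankyrin shRNA cells and 6.82, 6.68 and 5.11 in control cells.

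TGIF1 and TGIF2 encode homeodomain repressors that bind activated SMADs. TGIF1 read 9.02, 9.22 and 8.95 in gankyrin shRNA cells and 9.31, 9.44 and 9.51 in control cells, and fell 1.28-fold (limma adjusted p = 0.0126). TGIF2 read 7.34, 7.31 and 7.09 in gankyrin shRNA cells, against 7.59, 7.68 and 7.85 in control cells, and fell 1.38-fold (limma adjusted p = 0.0083). Neither pair of groups overlapped. Dimmer TGIF1 probe sets were at -0.57 and 0.34 and the dimmer TGIF2 probe set at -0.14, and none of these passed.

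Both genes entered in the list as TGF-beta targets, PMEPA1 and TGFBI, fell. Each gene was given a single role. SMAD7, SKIL and BAMBI were entered as inhibitors or a corepressor and not as targets. Of these, SMAD7 and SKIL did not pass and BAMBI rose. PMEPA1, which TGF-beta induces and whose product restrains the pathway by binding SMAD2 and SMAD3, read 7.28, 7.30 and 7.37 in gankyrin shRNA cells and 8.10, 8.2 and 8.27 in control cells. That is a 1.83-fold fall (log2 fold change -0.87 ± 0.07 SE, limma adjusted p = 6.32e-05). The second PMEPA1 probe set read 6.37, 6.5 and 6.33 in gankyrin shRNA cells and 7.05, 7.27 and 7.33 in control cells and fell as well, by 0.82, while the dimmest, at -0.44, did not pass. TGFBI, a secreted matrix protein named for its induction by TGF-beta, read 7.30, 7.43 and 7.43 in gankyrin shRNA cells and 7.88, 7.89 and 8.0 in control cells. TGFBI fell 1.45-fold on its only probe set (log2 fold change -0.54 ± 0.08 SE, limma adjusted p = 0.00113).

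**Figure D3:**
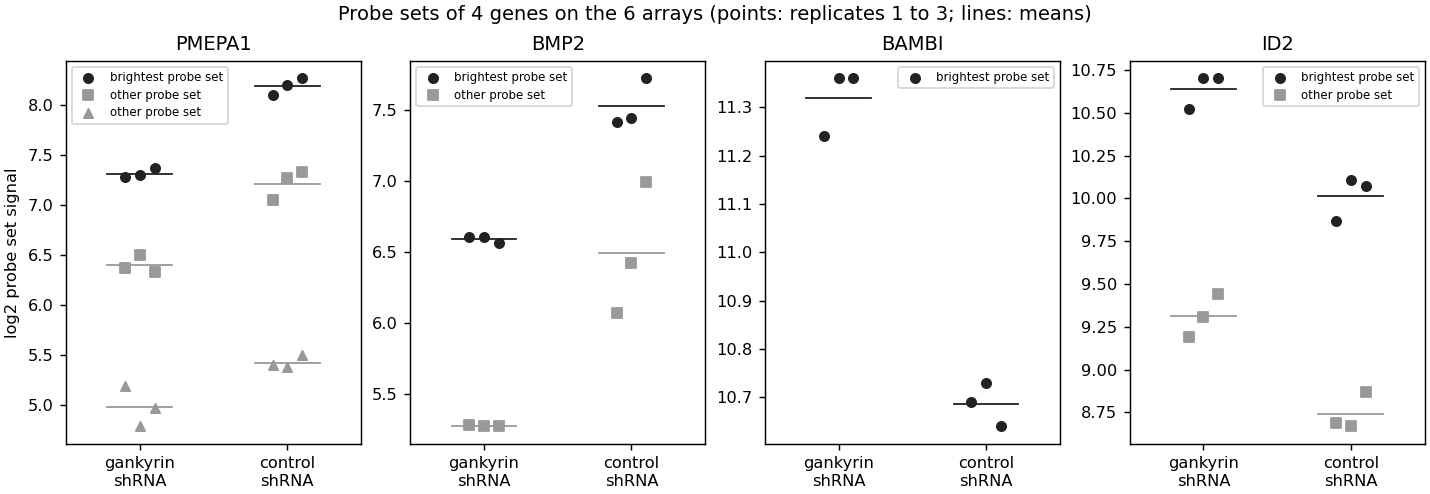
Log2 signal of every single-gene probe set past the limit for dim signals for PMEPA1, BMP2, BAMBI and ID2, with the 3 gankyrin shRNA arrays left of the 3 control shRNA arrays in each panel; points are arrays, lines are means, and each panel has its own axis. Every probe set of PMEPA1 and BMP2 is lower and every probe set of ID2 and BAMBI higher in gankyrin shRNA cells, with no overlap.

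In the BMP branch the largest change was the fall of the ligand BMP2. BMP2 read 6.60, 6.60 and 6.56 in gankyrin shRNA cells and 7.41, 7.44 and 7.72 in control cells. The gankyrin shRNA arrays lay close together, all below the controls, and BMP2 fell 1.91-fold (log2 fold change -0.94 ± 0.10 SE, limma adjusted p = 0.000181), or by 0.84 without control replicate 3. The second BMP2 probe set fell by 1.22, with 5.28, 5.27 and 5.27 in gankyrin shRNA cells and 6.07, 6.42 and 6.99 in control cells. BMP7, another BMP ligand, read 5.26, 5.32 and 5.27 in gankyrin shRNA cells, against 5.11, 5.13 and 5.0 in control cells. Although these values do not overlap, BMP7 did not pass (log2 fold change 0.20 ± 0.09 SE, limma adjusted p = 0.137).

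Of the BMP receptors only BMPR2 passed in limma among the 2 that could be tested, and no probe set was named for BMPR1A. The type II receptor BMPR2 read 6.49, 6.23 and 6.27 in gankyrin shRNA cells and 6.67, 6.81 and 6.78 in control cells and fell 1.34-fold (limma adjusted p = 0.0117). Its 5 dimmer probe sets were at -0.27 to 0.10 and did not pass. The type I receptor ACVR1 was at 8.61 ± 0.06 in gankyrin shRNA cells and 8.51 ± 0.09 in control cells (SD, n = 3 each) and did not pass. The BMP-activated SMAD1 and SMAD5 and the inhibitory SMAD6 were also short of the threshold, at 0.00, 0.08 and -0.03, with 95% intervals inside -0.22 to 0.23. Dimmer SMAD5 probe sets were at -0.12 to 0.51, and none passed. On the one at 0.51 the groups did not overlap, with control replicate 3 lowest at 6.61. A dimmer SMAD6 probe set, at 4.31, 4.37 and 4.27 in gankyrin shRNA cells and 3.89, 3.97 and 3.64 in control cells, was 0.48 higher and passed among all 32759 probe sets (limma adjusted p = 0.0353), of which 10.6% did.

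The ID genes, BMP-induced inhibitors of helix-loop-helix transcription factors, were read on 3 members, of which ID2 passed. ID2 read 10.52, 10.70 and 10.70 in gankyrin shRNA cells and 9.87, 10.11 and 10.07 in control cells. ID2 rose 1.54-fold (log2 fold change 0.62 ± 0.07 SE, limma adjusted p = 0.000445), and so did its second probe set, by 0.57. A further ID2 probe set, annotated also to ID2B, overlapped between groups and was not used. ID1 read 9.42, 9.55 and 9.47 in gankyrin shRNA cells and 9.50, 9.64 and 8.71 in control cells. Its log2 fold change was 0.20 with a 95% interval of -0.23 to 0.62 and turned to -0.09 without control replicate 3, so its direction rests on that array. ID3 was too dim to test, at 2.32 to 2.49 in gankyrin shRNA cells and 2.31 to 2.58 in control cells on its only probe set.

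**Figure D4:**
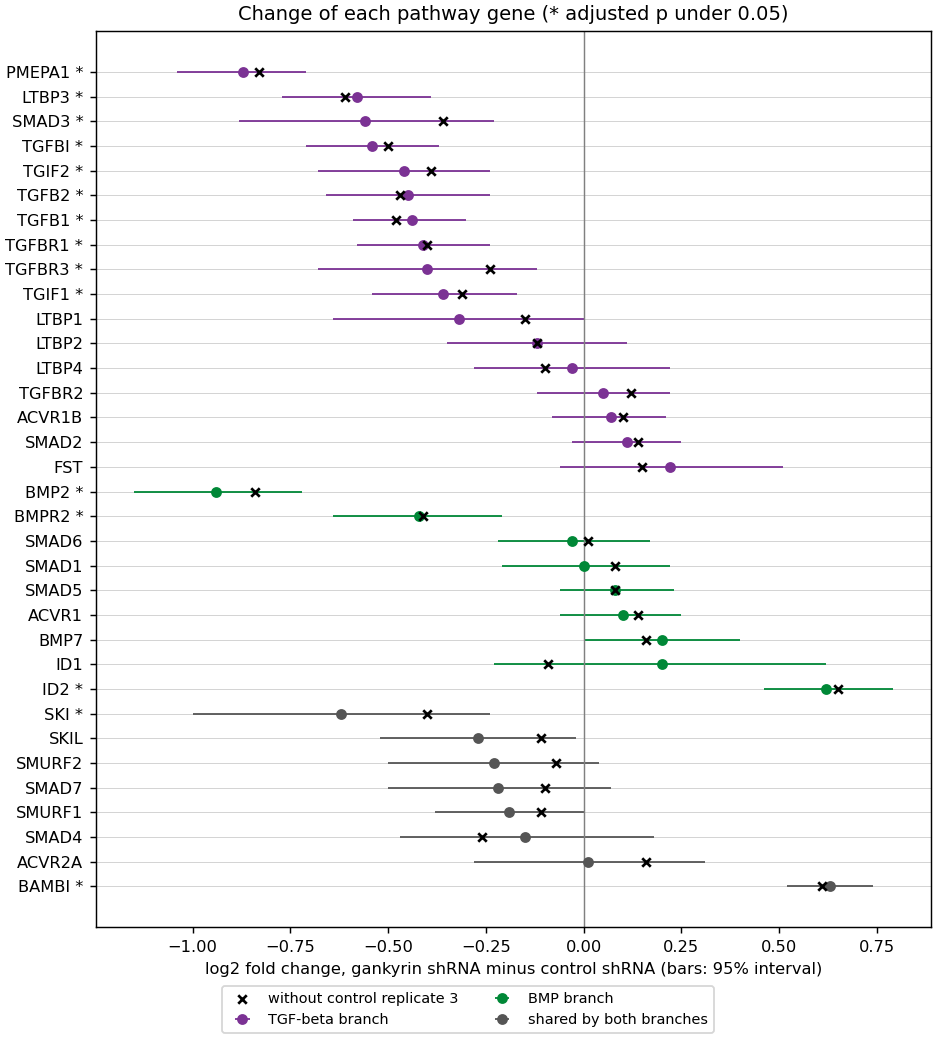
Log2 fold change (gankyrin shRNA minus control shRNA) of the 34 tested genes in rows, sorted within branch, with 95% intervals as bars; crosses give the value without control replicate 3 and asterisks mark an adjusted p under 0.05. PMEPA1 at -0.87 and BMP2 at -0.94 lead the falls, ID2 at 0.62 and BAMBI at 0.63 are the rises, and the crosses lie nearer 0 for SMAD3, SKI, TGFBR3 and LTBP1.

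Among the genes that serve both branches, BAMBI was the only inhibitor that passed. BAMBI, a pseudoreceptor without a kinase domain that blocks TGF-beta and BMP receptors, read 11.24, 11.36 and 11.36 in gankyrin shRNA cells and 10.69, 10.73 and 10.64 in control cells. BAMBI rose 1.55-fold on its only probe set (log2 fold change 0.63 ± 0.05 SE, limma adjusted p = 3.47e-05). The inhibitory SMAD7 read 5.58, 5.62 and 5.45 in gankyrin shRNA cells and 5.51, 5.78 and 6.01 in control cells, which overlap, and did not pass. SMURF1 and SMURF2, ubiquitin ligases that degrade receptors and SMADs, were at -0.19 and -0.23 and did not pass. Without control replicate 3 they were at -0.11 and -0.07. Dimmer SMURF1 probe sets were at -0.37 to 0.24, and none passed. Dimmer SMURF2 probe sets were at -0.43 to 0.23, and none passed, although the groups did not overlap at either end of that range.

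The corepressors SKI and SKIL hold SMAD complexes inactive. SKI read 7.32, 7.64 and 7.21 in gankyrin shRNA cells and 7.79, 7.80 and 8.44 in control cells. It fell by 0.62 ± 0.17 SE on the log2 scale (limma adjusted p = 0.0278), or by 0.40 without control replicate 3 (limma adjusted p = 0.0051), and its 2 dimmer probe sets were at -0.07 and 0.02. SKIL read 9.63, 9.66 and 9.60 in gankyrin shRNA cells, against 9.73, 9.75 and 10.22 in control cells, and did not pass (limma adjusted p = 0.116). Its groups did not overlap, but the log2 fold change of -0.27 became -0.11 without control replicate 3.

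SMAD4, the partner of both SMAD sets, did not pass. Its brightest probe set read 5.58, 6.07 and 5.96 in gankyrin shRNA cells and 6.06, 6.20 and 5.79 in control cells, a log2 fold change of -0.15 with a 95% interval from -0.47 to 0.18. The 4 other SMAD4 probe sets had group means of 1.97 to 3.66 in gankyrin shRNA cells and 1.88 to 3.85 in control cells, in the range of the olfactory receptor probe sets, of which 90% had means up to 4.18. The type II receptor ACVR2A, which takes activins and BMPs, was at 0.01 with an interval of -0.28 to 0.31.

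Other probe sets were used as a check. Of the 15 genes that passed, 12 had at least 1 other probe set past the limit for dim signals. For 3 of these 12 (PMEPA1, BMP2 and ID2) another probe set passed in the same direction among all 32759 probe sets in limma, and for 6 another probe set had a fold change of opposite sign. In that fit 4.05% of probe sets passed as higher and 6.54% as lower, and of the 57 other probe sets of the pathway genes 2 passed in each direction. The brightest probe sets of SMAD3, SKI and TGFBR3 did not pass in it (limma adjusted p = 0.0759, 0.0872 and 0.113).

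Other genes of the pathway, in 7 lists also chosen with earlier results of these data known, gave 78 tested genes of 109. Of these 25 fell and 5 rose, and 38.5% passed in either direction, against 22.5% of all genes. Their log2 fold changes had a median of -0.12, or -0.07 without control replicate 3. Of the 30 genes that passed, 11 passed under every alternative run: BMP4, RGMB, TWSG1, NBL1, ITGAV, ITGB5, ITGB8, COL4A1, KLF10, SPHK1 and RUNX2. A stricter filter removed COL4A1, SPHK1 and RUNX2 as too dim, so it did not test these. Under the other probe set choices BMP4, NBL1, ITGAV, ITGB8, COL4A1, KLF10 and SPHK1 kept the same log2 fold change, so those hardly tested them. The calls of INHBE, ACVR1C, CHRD, WWP1, JUNB and HEY1 were each lost under 6 or more alternatives. Leaving out gankyrin shRNA replicate 1, 2 or 3 lowered the number that passed in limma to 16, 14 and 17.

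Among the other ligands 2 of 13 fell and 1 rose. That is 23.1% in either direction, near the 22.5% of all genes. Of the further receptors 42.9% passed and of the secreted antagonists 66.7%. BMP4, like BMP2 a ligand of the BMP branch, had a mean of 9.22 ± 0.07 in gankyrin shRNA cells and 9.70 ± 0.05 in control cells (SD, n = 3 each) and fell (limma adjusted p = 0.000536). BMP8B fell by 0.50, but was at -0.06 and did not pass with its probe sets averaged, and INHBE, an activin subunit, rose by 0.29. Of 7 further receptors and co-receptors 3 fell and 0 rose in limma (0 at an unadjusted p under 0.05 too): the BMP co-receptor RGMB by 0.53, the activin type II receptor ACVR2B by 0.40 and the type I receptor ACVR1C, a dim probe set, by 0.36. ACVR1C had means of 3.65 in gankyrin shRNA cells and 4.01 in control cells, in the range of the olfactory receptor probe sets. Of 6 secreted antagonists 4 fell, namely the DAN family member NBL1 (-0.67), CHRD (-0.50), TWSG1 (-0.46) and FSTL3 (-0.37), while CER1 and DCN did not pass. CHRD and NBL1 were highest on control replicate 3, and without it they were at -0.30 and -0.51.

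Genes that release or activate latent TGF-beta went both ways, with 2 rises and 2 falls among 8. The integrin subunits ITGAV and ITGB5 fell by 0.43 and 0.33, whereas ITGB8, whose integrin activates latent TGF-beta, rose by 0.54 (limma adjusted p = 0.000597) and thrombospondin-1 (THBS1) rose by 0.39. Of 24 intracellular regulators 4 fell and 2 rose. SMAD9, another BMP-activated SMAD, fell by 0.42, RNF111, a ubiquitin ligase that removes SKI and SKIL, by 0.32, FKBP1A, which binds type I receptors, by 0.27 and XIAP by 0.22. The ubiquitin ligase WWP1 rose by 0.28 and the deubiquitinase UCHL5 by 0.35, and UCHL5 turned to -0.20 with another choice of probe set.

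Of 13 other TGF-beta target genes 7 fell and 0 rose in limma, nor did any at an unadjusted p under 0.05. That is 53.8%, and of the other BMP target genes 42.9% passed, against 22.5% of all genes. The collagen gene COL4A1 was at 3.87 in gankyrin shRNA cells and 5.01 in control cells, SPHK1 at 4.16 in gankyrin shRNA cells and 4.84 in control cells, and TGM2 at 4.27 in gankyrin shRNA cells and 4.81 in control cells, all dim. CDKN2B, an inhibitor of CDK4 and CDK6, fell by 0.61 and fibronectin (FN1) by 0.36, followed by KLF10 (-0.32) and JUNB (-0.25). With probe sets averaged CDKN2B was at -0.31, FN1 at -0.15 and TGM2 at -0.22, and none of these passed. CDKN1A, CCN2, COL1A1, IGFBP3, TAGLN and SNAI1 did not pass. Of 7 other BMP target genes 3 fell: RUNX2 by 0.81, MSX2 by 0.43 and HEY1 by 0.37, while ID4, MSX1, ATOH8 and HAMP did not pass. An exact two-sided permutation test of a single gene over 3 against 3 arrays cannot go below p = 0.1, which is why the fit across all genes was used.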

How the data were processed

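The 6 arrays from SW480 cells fell into groups of 3, with groups and replicate numbers from the sample titles. Signals were deposited by the authors on a log2 scale, already brought to 1 level across arrays (range 1.29 to 13.68, array medians 4.20 to 4.25). The submitters' processing notes name MAS5 without role or version, and the summary method is not given in the sources used here. Probe sets were named by the platform annotation, updated to RefSeq symbols. Of 54675 probe sets 41091 name 1 gene, 1801 several and 11721 none. A filter removed the array's controls and the dimmest 40% of the remaining probe sets by mean (limit 3.6). The brightest single-gene probe set stood for each gene, giving 14199 genes. The test was limma (version 3.58.1, R version 4.3.3; lmFit and eBayes with an intensity trend, two-sided, Benjamini-Hochberg over all genes). Ratios and folds printed here were computed from the deposited log2 values. Upstream sequences came from RefSeq (GRCh38.p14). All 37 genes, PSMD10, every other pathway gene past the threshold and the marker lists could be named. The genes, lists and branches were chosen with earlier results of these data known.

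The fit was tested on simulated data with known changes, 50 genes at each size. It recovered 11 changes of 0.3, 30 of 0.5, 46 of 1 and 50 of 2 on the log2 scale. Of 142 calls 5 were false. Small changes were thus often missed. Fewer genes were changed than passed in the deposited data, so these rates may differ there. Alternatives were array centring, quantile normalization, no or a stricter filter, other probe set choices, other variance priors, a replicate block and leaving out each array. The number of arrays limits the precision.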

Additional observations from a re-analysis of the deposited data

Results flagged for a closer look

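The 3 control probe sets for 18S ribosomal RNA, which belong to none of the comparisons, were higher on every gankyrin shRNA array than on every control array. The differences in log2 signal were 1.29, 0.82 and 0.79 for the 3′, 5′ and middle probe sets. The 3′ probe set, for example, read 7.48, 7.30 and 7.55 on the gankyrin shRNA arrays, against 6.28, 6.02 and 6.17 on the control arrays. Their part in the results above was not tested.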

How the results depend on the processing

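Of the 15 pathway genes that passed, 7 passed under all alternatives run (15, or 14 for TGFB2): PMEPA1, TGFBI, TGFB2, TGIF2 and BMP2 as lower, ID2 and BAMBI as higher. The stricter filter removed TGFB2 as too dim, so it did not test that gene. Averaging a gene's probe sets left 6 falls and 3 rises among the listed genes, against 1396 falls and 1007 rises over all genes. The TGF-beta branch then had 6 calls, among them the rise of ACVR1B. The TGF-beta branch also had 6 calls when the less specific _x_at and _s_at probe sets were passed over. Averaging and this choice could not test TGFB2, TGFBI and BAMBI, each with 1 probe set past the limit for dim signals. This choice also kept the same probe set for PMEPA1, TGIF2, BMP2 and ID2. Averaging did test these, at -0.71, -0.30, -1.08 and 0.60. Passing under all alternatives thus depends in part on which probe sets a gene has. Leaving out single arrays gave 8 to 13 falls among the listed genes, 14 to 30 calls among the other pathway genes and 1732 to 4161 calls over all genes, of 3189. The lowest numbers came without a gankyrin shRNA array. Besides losses on averaging for TGFB1, TGFBR1, SMAD3, TGIF1, BMPR2 and SKI, calls were lost for TGFBR3 under 8 alternatives and for SMAD3, TGIF1, BMPR2 and SKI without 1 or more gankyrin shRNA arrays. SKI also lost its call with no intensity trend. Of the 30 other pathway genes that passed, 19 lost their call under at least 1 alternative. The cause was not tested.

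With those passed over, TGFB1 was at 0.11, TGFBR1 at 0.46, UCHL5 at -0.20 and ACVR2A at -0.32; LTBP3 kept its direction at -0.04 but not its call. With probe sets averaged, SMAD6 was at 0.12 and ACVR2A at -0.15. SMAD1 was at -0.01 with arrays centred on their medians and SMAD6 at 0.01 with quantile normalization. Leaving out single arrays turned LTBP4 (-0.10 to 0.05), TGFBR2 (-0.02 to 0.12), SMAD1 (-0.08 to 0.08), SMAD6 (-0.06 to 0.02), ID1 (-0.09 to 0.37) and ACVR2A (-0.10 to 0.16), none of which passed.

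Deviations from the group means had correlations of 0.02, 0.11 and -0.01 between same-numbered arrays of the groups, for replicates 1 to 3. Between differently numbered arrays they were -0.07 to 0.05. With 3 arrays per group these values cannot decide whether the numbers pair arrays, and the main fit used no pairing. With replicate number as a block, 3049 genes passed, and 13 listed genes fell and 2 rose as before. Signals near the low end of the scale, such as those of INHBA, ID3 and most SMAD4 probe sets, allow no statement on change. The same limit holds for ACVR1C, although it passed.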
